A study of Mus musculus with 13 samples.

Results

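The insulin-like growth factor (IGF) system was followed here through 10 genes: the ligands Igf1 and Igf2, the receptors Igf1r and Igf2r, and the binding proteins Igfbp2, Igfbp3, Igfbp4, Igfbp5, Igfbp6 and Igfbp7. They were chosen by name, as every probe set whose platform annotation names only one of them, which gave 28 of 45037 probe sets and 10 of 18193 genes. The cells were C2C12 myoblasts, an immortal line that came from satellite cells of adult mouse muscle and that can either divide or fuse into myotubes. Parallel flasks were held in low serum for a day to synchronise them and were then given serum again, and RNA was taken at 0 h and every 0.5 h up to 6 h, with 1 Affymetrix array per time point. The series was made to look for genes that oscillate as they do in somite formation. All 13 arrays came from the same line and the same serum release, so the labels tell them apart by time alone, with no replicate arrays and no flasks kept without serum among them. For the tests they were grouped by time into 0 h (1 array), an early window of 0.5 to 2.0 h (4 arrays), a middle window of 2.5 to 4.0 h (4 arrays) and a late window of 4.5 to 6.0 h (4 arrays).

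IGF1 and IGF2 are secreted growth factors that signal through the IGF1 receptor, a tyrosine kinase that feeds the PI3-kinase and Akt branch and promotes growth, survival and, in myoblasts, both division and differentiation. The IGF2 receptor, also the mannose 6-phosphate receptor, takes up IGF2 for breakdown in lysosomes and has no kinase of its own. IGF binding proteins hold the ligands outside the cell and can either block or prolong their action, and proteases such as PAPP-A release the ligand by cutting them. Myoblasts in culture make several of these proteins themselves, and IGF2 and IGFBP5 are known as products of differentiating muscle cells.

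The deposited values are linear ratios, one per probe set and array, and each gene was given the mean of the log2 ratios of its probe sets, printed here as a ratio. A ratio of 1 is a reference particular to each probe set, so levels of different genes cannot be compared, and whether a marker gene was present or absent could not be checked. Medians over all probe sets lay between 0.977 and 1 on the 13 arrays. The spread over all probe sets was widest at 0 h, with an SD of 0.318 on the log2 scale, then 0.299 at 0.5 h and 0.188 to 0.262 later. Differences between windows were tested with limma on the log2 ratio over all genes, with the Benjamini-Hochberg adjusted p under 0.05 as the threshold, and they are given as log2 change ± SE. The p-values measure the spread between arrays of neighbouring times, which are single flasks, and the 0 h array was assumed to vary like the others.

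Between the early and the late window, 6 of the 10 genes fell and none rose past the threshold. The genes that fell were 1 ligand (Igf1), both receptors (Igf1r and Igf2r) and 3 binding proteins (Igfbp3, Igfbp4 and Igfbp5), whereas Igf2, Igfbp2, Igfbp6 and Igfbp7 did not pass the test. Over all 18193 genes, 9.29% were called lower and 11.7% higher in this comparison. The median change of the 10 genes was -0.29, against 0.02 over all genes. Igfbp5 had the largest fall of the 10, to a late level 2.03-fold below its early level, which ranked 68 of 18193 when all genes were ordered from the most negative change. All late arrays lay below all early arrays in 6 of the 10 genes, against 11.1% of all genes. These were the same 6 that passed the test. The test used the same arrays, so this count is not separate support for the falls.

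**Figure D1:**
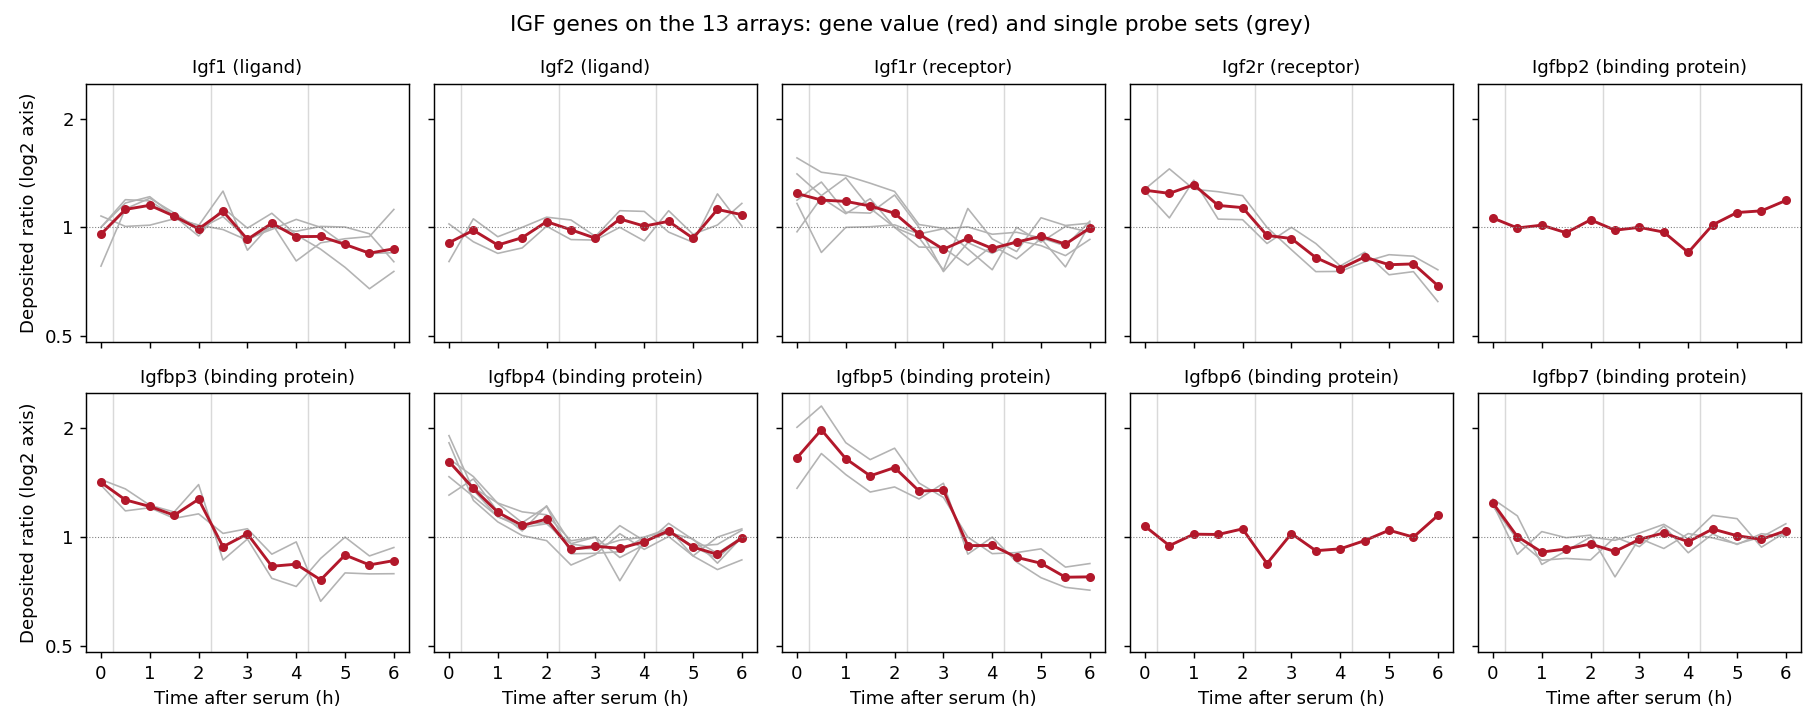
Deposited ratio (log2-spaced axis) against time after serum (h) for the 10 IGF genes, with the gene value in red, each probe set in grey and thin vertical lines between the windows. Igfbp5 runs highest at 0.5 h (1.98) and lowest at 5.5 h (0.774), Igfbp4 drops mostly before 2.5 h, and Igf2, Igfbp2 and Igfbp6 stay between 0.845 and 1.19.

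Igfbp5, a binding protein that attaches to extracellular matrix, changed more than any other gene of the set. Its ratio was 1.66 at 0 h, then 1.98, 1.65, 1.48 and 1.56 in the early window, 1.34, 1.35, 0.947 and 0.949 in the middle window, and 0.879, 0.846, 0.774 and 0.776 in the late window. The arrays up to 3.0 h were all at 1.34 or above and those from 3.5 h on all lay below 1, so that the step between 3.0 and 3.5 h was the steepest of the course. Relative to the early window, the middle window changed by -0.55 ± 0.12 (adjusted p 0.00606) and the late window by -1.02 ± 0.12 (adjusted p 6.305e-05). The early window did not differ detectably from the 0 h array, with a change of -0.00 ± 0.19 and a 95% interval of -0.42 to 0.42. Both probe sets for Igfbp5 fell, with changes of -0.94 and -1.09 between the early and the late window, and their courses correlated at r = 0.93 over the 13 arrays.

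Igfbp3 and Igfbp4 also fell, on different schedules. IGFBP3, the main carrier of IGFs in blood, had gene ratios of 1.42 at 0 h, of 1.27, 1.22, 1.15 and 1.27 in the early window, of 0.941, 1.02, 0.831 and 0.842 in the middle window, and of 0.761, 0.892, 0.838 and 0.861 in the late window. Its change was -0.44 ± 0.07 from early to middle (adjusted p 0.00116) and -0.55 ± 0.07 from early to late (adjusted p 1.23e-04). Both of its probe sets passed the test in each comparison, but they differed in timing. From early to middle and from early to late, 1423062_at changed by -0.63 and -0.48, and 1458268_s_at by -0.25 and -0.62. Igfbp4 encodes a binding protein that is known mainly as an inhibitor of IGF action and as the chief substrate of PAPP-A. Its ratio was 1.62 at 0 h, then 1.36, 1.17, 1.08 and 1.12 in the early window, 0.925, 0.943, 0.932 and 0.971 in the middle window, and 1.04, 0.938, 0.896 and 0.993 in the late window. The fall was therefore spread over the first 2.5 h, and the middle and late arrays overlapped. Relative to the early window, Igfbp4 changed by -0.32 ± 0.07 in the middle window (adjusted p 0.00598) and by -0.29 ± 0.07 in the late window (adjusted p 0.00959). Its 6 probe sets all had negative early to late changes, of -0.47 to -0.14, and 4 of them passed the test. With a single probe set in place of the mean, the early to late change of Igfbp4 was still -0.29 but no longer passed (adjusted p 0.0629).

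The start regions of the binding proteins that fell are shown because the 3 genes moved in the same direction and can be compared in sequence. Each window runs from 250 bases before to 50 bases after the RefSeq start of the gene (GRCm38.p6) and is written 5′ to 3′ on the strand of the gene. Igfbp5 lies on the minus strand at chr1:72874816-72875115, Igfbp3 on the minus strand at chr11:7213874-7214173, and Igfbp4 on the plus strand at chr11:99040994-99041293. Capitals mark a TATA-type match, which is TATAAA in Igfbp4 and TATNTA in the other two.
Igfbp5: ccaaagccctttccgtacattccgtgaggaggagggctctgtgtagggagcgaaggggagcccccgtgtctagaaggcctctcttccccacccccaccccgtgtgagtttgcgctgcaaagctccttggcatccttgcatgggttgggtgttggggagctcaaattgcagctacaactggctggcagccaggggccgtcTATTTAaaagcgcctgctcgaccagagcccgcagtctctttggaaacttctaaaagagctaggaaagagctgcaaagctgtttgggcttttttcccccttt
Igfbp3: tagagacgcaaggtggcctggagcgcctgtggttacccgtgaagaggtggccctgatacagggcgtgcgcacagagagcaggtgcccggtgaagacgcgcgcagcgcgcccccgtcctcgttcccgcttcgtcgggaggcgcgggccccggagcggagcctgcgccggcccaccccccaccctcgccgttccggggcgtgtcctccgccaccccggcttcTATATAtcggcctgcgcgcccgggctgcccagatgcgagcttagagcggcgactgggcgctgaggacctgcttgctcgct
Igfbp4: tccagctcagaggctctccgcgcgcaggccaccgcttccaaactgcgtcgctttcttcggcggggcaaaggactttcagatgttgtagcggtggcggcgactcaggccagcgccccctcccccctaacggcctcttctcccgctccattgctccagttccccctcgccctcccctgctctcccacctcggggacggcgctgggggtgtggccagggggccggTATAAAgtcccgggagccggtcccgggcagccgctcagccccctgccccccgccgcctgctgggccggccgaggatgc
The matches begin 51, 30 and 28 bases before the start in Igfbp5, Igfbp3 and Igfbp4, in that order, and the match in Igfbp3 reads the same on both strands. Igfbp6, which did not pass the test in any comparison, has a TATNTA match 35 bases before its start, with the letters TATCTA. The TATNTA pattern is therefore not limited to the genes that fell. Igf1, which also fell, has a TATNTA match only on the other strand, 11 bases before its start. Over all 32851 start windows of the table, searched at any position on both strands, 13.62% held TATAAA and 27.18% held TATNTA. On the gene strand and 20 to 50 bases before the start, 4.89% held either motif. The match in Igfbp5, at 51 bases, lies just outside that span. The letters TATNTA were chosen after these sequences had been read.

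The receptors, shown next for contrast, have start regions without either TATA-type motif. Igf1r lies on the plus strand at chr7:67952007-67952306 and Igf2r on the minus strand at chr17:12769657-12769956, and capitals mark the GC-box letters GGGCGG.
Igf1r: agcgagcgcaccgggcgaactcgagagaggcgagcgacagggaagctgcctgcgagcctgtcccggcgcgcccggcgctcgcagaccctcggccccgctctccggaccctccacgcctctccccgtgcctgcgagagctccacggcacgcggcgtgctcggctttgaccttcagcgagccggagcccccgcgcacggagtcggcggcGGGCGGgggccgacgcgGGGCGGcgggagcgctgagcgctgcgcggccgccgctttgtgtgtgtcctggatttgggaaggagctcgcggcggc
Igf2r: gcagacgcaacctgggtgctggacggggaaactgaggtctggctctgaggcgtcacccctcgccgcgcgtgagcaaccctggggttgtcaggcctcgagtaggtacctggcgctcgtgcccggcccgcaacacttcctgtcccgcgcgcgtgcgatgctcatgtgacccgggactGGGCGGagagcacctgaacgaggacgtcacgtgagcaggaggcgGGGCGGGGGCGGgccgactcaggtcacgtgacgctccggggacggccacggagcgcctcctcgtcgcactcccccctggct
GGGCGG occurs 2 times in the Igf1r window and 3 times in the Igf2r window, where the last 2 matches adjoin, and in none of the windows of Igfbp3, Igfbp4 and Igfbp5. It is also in windows of Igf2, Igfbp2 and Igfbp7, which did not pass from early to late, with 4 matches in Igfbp7, so it does not separate receptors from binding proteins. It was found in 35.66% of all windows. The GC content was 76.0% in Igf1r, 70.7% in Igf2r, 71.7% in Igfbp3, 71.3% in Igfbp4 and 56.3% in Igfbp5, against a median of 52.7% over all windows. GTAAACA, the core letters bound by FOXO factors, was in no window of the 10 genes and in 3.65% of all windows. TGANTCA, a pattern wider than the AP-1 letters TGA(C/G)TCA, was in windows of Igf1 and Igfbp2 among the 10 genes. The match read TGAGTCA in Igfbp2 but TGAATCA in Igf1, which is outside the AP-1 letters. The wider pattern was in 7.81% of all windows. A match describes letters in a window of fixed length and does not show that a factor binds there.

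Both receptors were lower after 2.0 h. Igf2r had ratios of 1.27 at 0 h, of 1.24, 1.31, 1.15 and 1.13 in the early window, of 0.950, 0.931, 0.825 and 0.768 in the middle window, and of 0.828, 0.788, 0.792 and 0.690 in the late window. No array up to 2.0 h lay below 1.13, and none from 2.5 h on reached 1. The change was -0.48 ± 0.08 from early to middle (adjusted p 0.00112) and -0.64 ± 0.08 from early to late (adjusted p 7.365e-05), and both probe sets fell in each comparison. Igf1r had ratios of 1.24 at 0 h, of 1.19, 1.18, 1.15 and 1.09 in the early window, of 0.958, 0.870, 0.932 and 0.874 in the middle window, and of 0.911, 0.944, 0.899 and 0.996 in the late window. It changed by -0.34 ± 0.06 from early to middle (adjusted p 9.48e-04) and by -0.30 ± 0.06 from early to late (adjusted p 0.00129), so that its middle and late windows lay at a like height.

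The 5 probe sets for Igf1r did not move as one. Those named 1426565_at, 1428967_at and 1452982_at fell between the early and the late window, with changes of -0.47, -0.41 and -0.41. The probe set 1446303_at changed by -0.19 ± 0.11 (adjusted p 0.309) and 1452108_at by -0.01 ± 0.07 (adjusted p 0.940), and neither passed. Pairwise correlations among the 5 over the arrays ran from -0.19 to 0.84. Where on the transcript each probe set lies was not examined here, so whether they read different transcript forms was not tested.

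Of the ligands, Igf1 was lower late in the course and Igf2 did not pass any test. IGF1 is the main mediator of growth hormone action and also acts locally in muscle. Its ratio was 0.957 at 0 h, then 1.12, 1.15, 1.07 and 0.990 in the early window, 1.11, 0.926, 1.03 and 0.942 in the middle window, and 0.944, 0.897, 0.848 and 0.872 in the late window. All late arrays were below all early arrays, with a change of -0.28 ± 0.07 (adjusted p 0.00806). The middle window overlapped the early one, at -0.12 ± 0.07 (adjusted p 0.240), and the late window did not differ detectably from the 0 h array, at -0.11 ± 0.11. Of its 4 probe sets, 2 passed the early to late test: 1434413_at at -0.52 and 1419519_at at -0.30. Those that did not pass were 1437401_at at -0.19 (adjusted p 0.338) and 1452014_a_at at -0.12 (adjusted p 0.333). Only in 1434413_at did all late arrays lie below all early arrays. Pairwise correlations among the 4 over the arrays ran from 0.01 to 0.71. The probe set 1419519_at was also the only one of the 28 that was called higher in any window comparison. It changed by 0.50 ± 0.13 in the early window over the 0 h array, which rests on a ratio of 0.781 on that single array. Other probe sets had positive changes that were not called.

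Igf2, the fetal ligand that is imprinted and that differentiating myoblasts secrete, had ratios of 0.907 at 0 h, of 0.893 to 1.04 in the early window, of 0.933 to 1.06 in the middle window and of 0.933 to 1.12 in the late window. The late minus early change was 0.12 ± 0.07 with a 95% interval of -0.03 to 0.26 (adjusted p 0.267). Its 2 probe sets correlated at only 0.02 over the arrays, and their late minus early changes were 0.01 and 0.22. Neither passed, so a change of Igf2 was not detectable with these arrays.

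Igfbp2, Igfbp6 and Igfbp7 did not pass the early to late test. Igfbp2 had ratios of 1.06 at 0 h, of 0.966 to 1.05 in the early window, of 0.852 to 1.00 in the middle window and of 1.02 to 1.19 in the late window, and its late minus early change was 0.13 ± 0.06 (95% interval -0.01 to 0.27, adjusted p 0.176). Igfbp6, a binding protein that prefers IGF2, changed by 0.05 ± 0.07 (95% interval -0.10 to 0.19, adjusted p 0.720) and spanned 0.845 to 1.15 over the 13 arrays. Igfbp2 and Igfbp5 are immediate neighbours on chromosome 1 in the RefSeq gene order, and their late minus early changes stood at 0.13 and -1.02. Likewise Igfbp3, at -0.55, has Igfbp1 as its neighbour on chromosome 11, which changed by 0.07 ± 0.07 and did not pass (adjusted p 0.539). The differences between neighbours were not tested.

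Igfbp7, a related secreted protein that binds IGFs only weakly, was set apart by its 0 h array. Its ratio was 1.24 at 0 h, then 1.00, 0.909, 0.927 and 0.957 in the early window, 0.913, 0.986, 1.03 and 0.971 in the middle window, and 1.05, 1.01, 0.986 and 1.04 in the late window. The 0 h array lay above all 12 later arrays in each of the 3 probe sets. The early window fell below the 0 h array, with a change of -0.39 ± 0.08 (adjusted p 0.0275), and the late minus early change was 0.11 ± 0.05 (95% interval -0.01 to 0.22, adjusted p 0.187).

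Against the 0 h array, 2 of the 10 genes, Igfbp4 and Igfbp7, were already lower in the early window, where 1.81% of all genes were called lower and 1.46% higher. Igfbp4 changed by -0.46 ± 0.11 (adjusted p 0.0424), and 5 of its 6 probe sets were highest at 0 h. Both calls rest on 1 array at 0 h and are not stable: the call of Igfbp4 was lost in 15 of 19 alternatives and that of Igfbp7 in 5 of 19, and neither passed after quantile normalization (adjusted p 0.350 and 0.252). In the middle window 5 of the 10 genes were lower than in the early one and none was higher, against 14.4% of all genes called lower and 7.74% called higher. In the late window 6 were lower than at 0 h and none was higher, against 9.90% and 8.80% of all genes. These were Igfbp5 at -1.02 ± 0.19 (adjusted p 0.00294), Igfbp3 at -0.76 ± 0.12 and Igfbp4 at -0.75 ± 0.11 (adjusted p 8.59e-04 each), Igf2r at -0.71 ± 0.13 (adjusted p 0.00186), Igf1r at -0.41 ± 0.09 (adjusted p 0.00573) and Igfbp7 at -0.28 ± 0.08 (adjusted p 0.0331). The call of Igfbp7 was lost in 4 of 19 alternatives, with -0.18 after quantile normalization (adjusted p 0.245), and with one probe set per gene Igfbp4 changed by -0.40 and was not called (adjusted p 0.106).

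**Figure D2:**
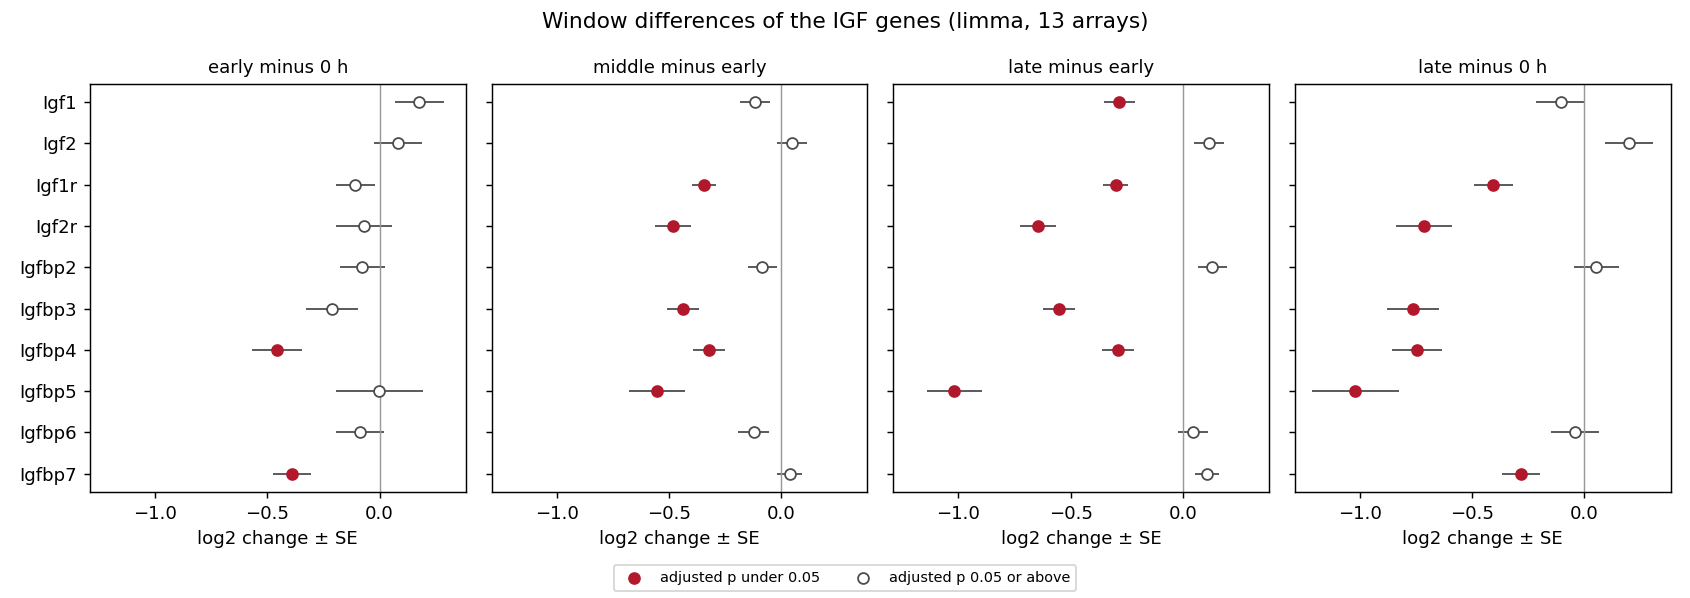
Log2 change ± SE of the gene value of the 10 IGF genes in 4 window comparisons (limma, 13 arrays), with filled red points for an adjusted p under 0.05 and open points otherwise. Igfbp5 sits near 0 in the early window against 0 h and at -1.02 in the late window against the early one, whereas Igfbp7 is lower only in the comparisons with 0 h.

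A smooth course in time, a natural cubic spline with 4 degrees of freedom, passed the test in 7 of the 10 genes, against 38.0% of all genes. The smallest adjusted p-values were 1.23e-06 for Igfbp5 and 2.62e-06 for Igf2r. Igf2, Igfbp2 and Igfbp6 did not pass, with adjusted p-values of 0.274, 0.0780 and 0.301. The calls of Igf1 (adjusted p 0.0258) and Igfbp7 (adjusted p 0.0265) were the weakest of the 7. The series was designed to find oscillating genes, and a cosine and sine of period 2 h, about that of the mouse segmentation clock, were therefore added to a smooth trend. None of the 10 genes passed this test, which called 0% of all genes, and none of the 10 had an unadjusted p under 0.05, against 721 of 18193 genes.

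Among the genes that fell from early to late, both receptors and the 3 binding proteins had pairwise correlations of 0.71 to 0.95, and Igf1 correlated with these 5 at 0.35 (Igfbp4) to 0.75 (Igfbp5). Igfbp5 and Igf2r correlated at r = 0.95 over the 13 arrays, Igf2r and Igfbp3 at 0.92, Igfbp3 and Igfbp5 at 0.91, and Igf1r and Igfbp4 at 0.86. Igf2 had negative correlations with these 5 genes, among them -0.65 with Igf2r and -0.64 with Igfbp5. These values describe 13 points that share each array and follow each other in time, so any genes that drift over the 6 h correlate. Among all other genes, those closest to Igfbp5 were Epb41l2, Ptprd and Capn6, each at r = 0.98. Closest to Igf2r were Sptan1 at 0.99, and Tgm2, a transglutaminase, and Med12, a Mediator subunit, at 0.98. Closest to Igfbp3 were Col4a5, a chain of basement membrane collagen, and Ccdc80, both at 0.98, and Heyl, a target of Notch signalling, at 0.97. Heyl stood at a ratio of 0.852 at 6 h, against 2.64 at 0 h, and Col4a5 at 0.872, against 1.43.

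**Figure D3:**
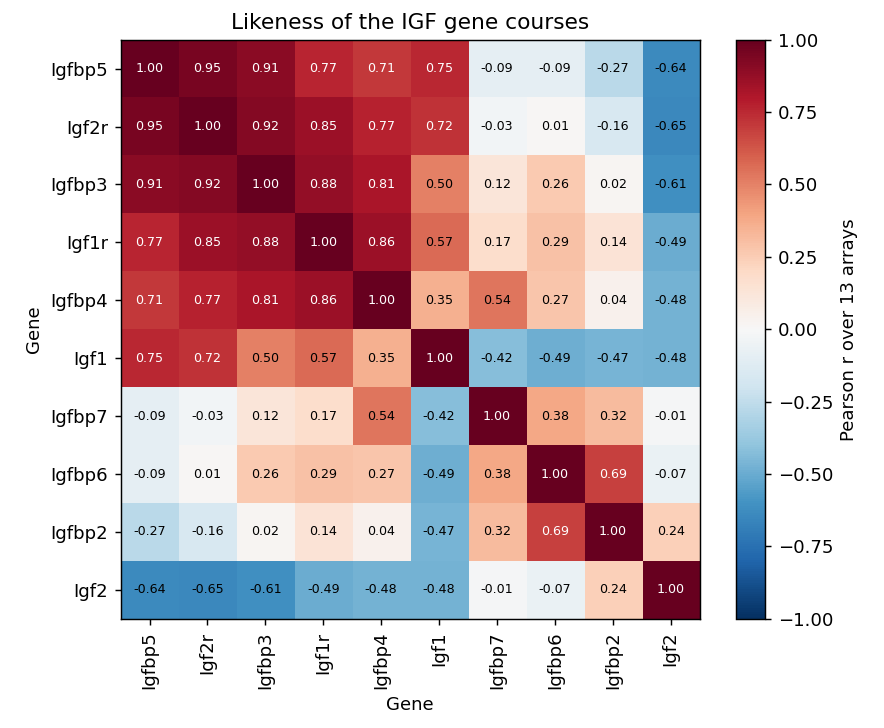
Pearson correlation of the gene values of each pair of the 10 IGF genes over the 13 arrays, coloured from -1 (blue) to 1 (red). Igfbp5, Igf2r, Igfbp3, Igf1r and Igfbp4 form a block at 0.71 to 0.95, and Igf2 lies at -0.65 to -0.48 with these 5 genes.

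Other genes of the IGF system were taken from lists by role, with 32 of 36 genes analysed here. The proteases that cut binding proteins and their inhibitors moved in both directions. Pappa, which encodes the protease that cuts IGFBP4, had ratios of 1.01 to 1.05 in the late window, against 0.735 to 0.817 in the early window, and rose by 0.37 ± 0.06 (adjusted p 3.09e-04). Pappa2, its relative that cuts IGFBP5, rose from early to late by 0.21 ± 0.06 (adjusted p 0.0337). Its ratio was 1.17 at 0 h, 0.859 to 0.987 in the early window and 1.00 to 1.11 in the late window. The late window thus lay above the early one but not above the single 0 h array (late minus 0 h -0.14 ± 0.10). Htra3, a secreted serine protease, had ratios of 0.813 to 0.948 in the late window, against 1.22 to 1.41 in the early window, and fell by 0.60 ± 0.07 (adjusted p 6.217e-05). Stc2, an inhibitor of PAPP-A, did not pass from early to late but was higher in the late window than at 0 h by 0.78 ± 0.21 (adjusted p 0.0180). Early to late, 2 of the 6 genes of this list were called higher and 1 lower, with a median change of 0.05. Over all genes, 11.7% were called higher and 9.29% lower. In the middle window, Pappa was higher than in the early window (0.44), and Htra3 (-0.36) and Htra1 (-0.18) were lower. In that comparison, 7.74% of all genes were called higher and 14.4% lower. None of the 3 other binding protein genes passed any test; the early to late changes farthest from 0 among them were 0.07 for Igfbp1 and 0.04 for Igfbpl1. Igf2bp1 (0.03) and Igf2bp3 (-0.08), whose proteins bind Igf2 mRNA, did not pass either.

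Of the 8 receptor relatives and adaptors, 2 fell from early to late and none rose, with a median change of -0.11. Over all genes, 9.29% were called lower and 11.7% higher. Shc1, an adaptor that leads to the Ras pathway, changed by -0.58 ± 0.13 (adjusted p 0.00445), and Gab1, a docking protein, by -0.33 ± 0.10 (adjusted p 0.0269). Both were also lower in the middle than in the early window, where Insrr, the insulin receptor-related receptor, was higher by 0.44 ± 0.13 (adjusted p 0.0268). Grb14, an inhibitor of insulin receptor signalling, was lower in the late window than at 0 h, with a change of -0.33 ± 0.09 (adjusted p 0.0195). Irs1, the main docking protein of the receptor, passed only the smooth course test (adjusted p 0.00122).

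Of the 13 genes analysed of the PI3-kinase and Akt branch, 7 were lower in the middle than in the early window and none was higher, with a median change of -0.29, against 14.4% and 7.74% of all genes. Other windows gave 1507 calls over all genes in this comparison in place of 4033. These 7 were the catalytic subunit gene Pik3ca (-0.45), the regulatory subunit genes Pik3r1 (-0.41), Pik3r2 (-0.42) and Pik3r3 (-0.44), the kinases Pdpk1 (-0.29) and Akt2 (-0.24), and Tsc2 (-0.34), a brake on mTOR. From early to late, 5 of the 13 fell and 1 rose, against 9.29% of all genes called lower and 11.7% called higher. Pik3r2 had ratios of 0.851 to 0.911 in the late window, against 1.18 to 1.27 in the early window, and changed by -0.49 ± 0.06 (adjusted p 1.289e-04). Tsc2, Pik3r3, Akt2 and Pdpk1 changed by -0.32, -0.29, -0.28 and -0.23, and the gene that rose was Pik3cb, another catalytic subunit, by 0.29 ± 0.09 (adjusted p 0.0375). Pik3ip1, an inhibitor of PI3-kinase, had a ratio of 2.32 at 0 h, then 1.58, 1.43, 1.03 and 0.896 in the early window and 0.866 to 1.06 from 2.5 h on. Relative to 0 h it changed by -0.95 ± 0.22 in the early window (adjusted p 0.0353) and by -1.30 ± 0.22 in the late window (adjusted p 0.00159). Pik3r2 (-0.75) and Tsc2 (-0.71) were also lower in the late window than at 0 h, and Rheb, the activator of mTOR that Tsc2 restrains, was higher by 0.37 ± 0.11 (adjusted p 0.0318).

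**Figure D4:**
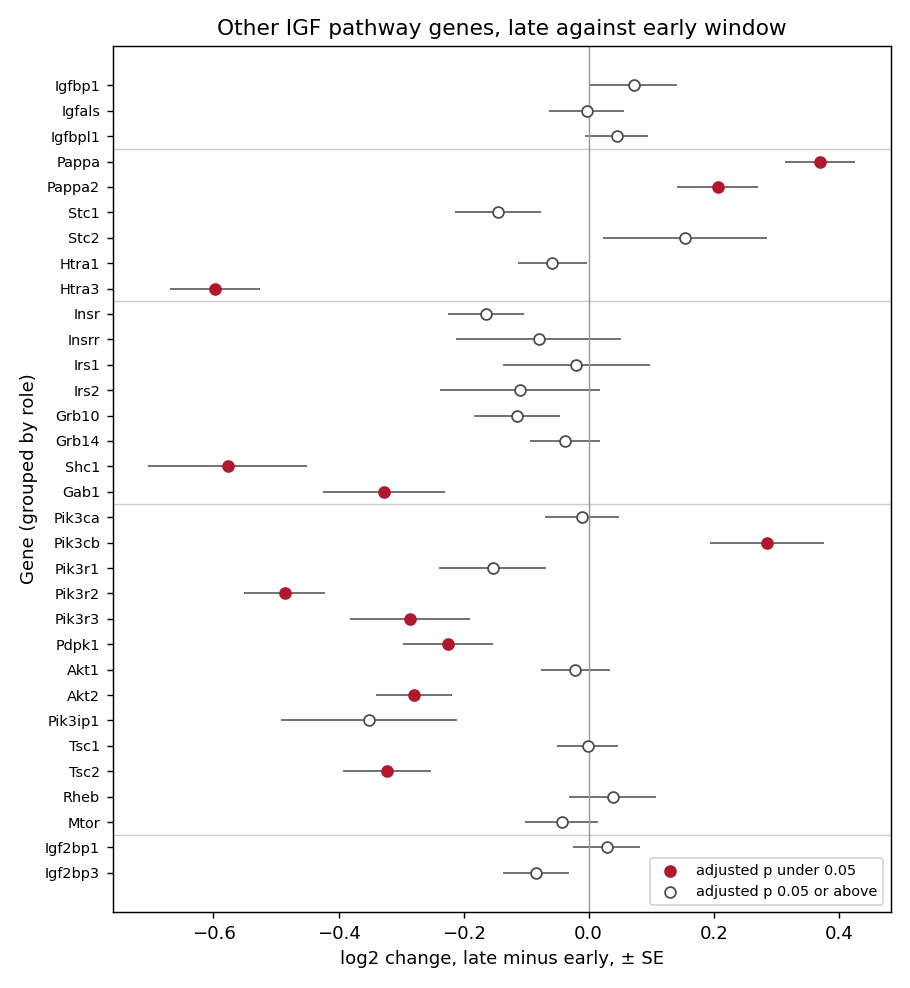
Late minus early log2 change ± SE of the 32 genes analysed of the IGF system outside the 10, grouped by role from top to bottom (other binding proteins, proteases and their inhibitors, receptor relatives and adaptors, PI3-kinase and Akt branch, Igf2 mRNA-binding proteins). Filled red points have an adjusted p under 0.05; Pappa (0.37) and Pik3cb (0.29) are the highest and Htra3 (-0.60) and Shc1 (-0.58) the lowest.

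Marker lists of myoblasts, differentiated muscle, fibroblasts, and blood and endothelium were read over the same windows. Of 9 markers of differentiated muscle, 9 were higher in the late than in the early window, against 11.7% of all genes, with a median change of 0.33. The median ratio of the list was 1.11 to 1.21 on the late arrays, 0.831 to 1.00 on the early arrays and 0.978 at 0 h. Against the single 0 h array, the median change of the list was -0.10 in the early window and 0.22 in the late window. The late changes from 0 h ran from -0.14 (Mb) to 0.55 (Tnnc1), so the rise from early to late was not a rise over 0 h in every marker. Tnnc1 rose by 0.63 ± 0.11, Acta1 by 0.45 ± 0.08 and Myog by 0.34 ± 0.07 (adjusted p 9.81e-04, 9.92e-04 and 0.00194), and Tnnt1, Mb, Mef2c, Myh3, Myl1 and Ckm by 0.22 to 0.49. Of 7 myoblast markers none passed from early to late, with list medians of 0.982 to 1.01 late, 0.959 to 1.18 early and 1.21 at 0 h. Myf5 was lower in the middle than in the early window (-0.60 ± 0.13, adjusted p 0.00421), Cdh15 was lower in the late window than at 0 h (-0.57 ± 0.11, adjusted p 0.00416), and 4 of the 7 passed the smooth course test. Over all genes, 38.0% passed the smooth course test. Of 5 fibroblast markers 2 fell from early to late, Col1a1 (-0.35 ± 0.10) and Dcn (-0.26 ± 0.06), against 9.29% of all genes called lower. The medians of the fibroblast list were 0.949 to 0.999 late, 0.985 to 1.18 early and 1.26 at 0 h. Against the single 0 h array, Pdgfra changed by -0.42 ± 0.10 in the early window, where the median change of the list was -0.20. In the late window the changes from 0 h were -0.68 ± 0.16 for Col1a1, -0.58 ± 0.10 for Pdgfra and -0.36 ± 0.09 for Dcn. Those of Lum and Thy1 were -0.02 ± 0.11 and 0.03 ± 0.16. None of 7 blood and endothelial markers passed from early to late, with list medians of 0.902 to 1.01 late, 0.953 to 1.00 early and 0.864 at 0 h, and Adgre1 was higher in the late window than at 0 h (0.55 ± 0.13, adjusted p 0.00850). In RNA from whole flasks, fewer cells that express a gene and less of its RNA per cell cannot be told apart. The part of a changing cell mix in the falls of the IGF genes was not tested.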

How the data were processed

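Biotin-labelled RNA of C2C12 cells, taken at 13 times after serum return, was read on 1 Affymetrix mouse array per time, per the labels' protocols. The deposited values are linear ratios per probe set, made with RMA per the submitters' processing notes, with no version stated. What each ratio was taken against is not stated there; 27 of the 28 IGF probe sets have an array at exactly 1. Absolute signal is therefore lost, dim probe sets could not be filtered out, and the number of arrays limits the precision.

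The 64 array controls were left out. Of 45037 probe sets, 34945 named 1 gene, 932 several and 9160 none; only the first were named. Tests on the log2 ratio used limma 3.58.1 (linear model, empirical Bayes; two-sided; R 4.3.3) over all 18193 genes (mean over probe sets) and again over all probe sets, with 1 fit of the 4 window means. The median residual SD was 0.102 on the log2 scale. The smooth course was a spline with 4 degrees of freedom; the oscillation test had a trend with 3. Fits were tested on simulated data. Figures were made with matplotlib 3.10.9 and start regions read from RefSeq tables with Python 3.11.15; all 10 gene IDs were found there.

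All 10 IGF genes are named. Of the other lists of the IGF system, every gene past the threshold in a comparison is named, or up to 2 where a list has none; for the 3 IGF genes with the widest range, the 3 most correlated genes. The members, lists and windows were chosen with earlier results of these data known. The other 4 listed genes of the IGF system are not reported here. Alternatives changed the scaling, the prior, the probe sets, the windows, the curve, the period and single arrays.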

Additional observations from a re-analysis of the deposited data

How the results depend on the processing

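Over 19 to 23 alternatives per comparison, 1155 of 1210 values of the IGF genes kept their side of the threshold and, for the 770 that have one, their direction; 39 calls were lost, 2 gained, and 14 changes that had not passed turned sign, none of them passing. The early to late falls of Igf1, Igf1r, Igf2r, Igfbp3 and Igfbp5 passed in all 20 alternatives run for that comparison. The comparison with the single 0 h array was the least stable. Its calls among the IGF genes (2) became 0 with quantile normalization and with other windows, and 1, the fall of Igfbp7, with a variance trend and robust prior, without the middle window and, chosen after seeing the data, without probe sets marked s or x; with one probe set per gene both falls were lost and 1 rise, of Igf1 (0.50, adjusted p 0.0418), was gained; leaving out single arrays gave 0 to 2. Over all genes its 594 calls (265 higher) became 45 (38 higher) with quantile normalization, 218 with other windows, 298 without the 1.5 h array and 1431 without the 0.5 h array. Quantile normalization also gave 1902 late against 0 h calls in place of 3402. Other windows (early up to 1.5 h, late from 4.0 h) gave 1507 genes in place of 4033 and 2 IGF genes in place of 5 in the middle against the early window, ending the calls of Igfbp3 (adjusted p 0.153), Igfbp4 (0.0581) and Igfbp5 (0.0954); quantile normalization ended that of Igfbp5 (0.0527). A straight line gave 3704 genes in place of 6911 for the smooth course, where Igfbp7 was lost (0.939). It was lost in 6 of 21 alternatives, the others being quantile normalization (0.0570), one probe set per gene (0.0764) and leaving out the 0, 1.0 or 1.5 h array (0.343, 0.0550 and 0.0610). Igf1 lost its smooth course without the 1.0, 1.5 or 5.5 h array. With a period of 3 h, 74 genes passed the oscillation test in place of 0, none of them among the 10. The changes that turned sign were, early against 0 h, Igf2r (0.0212 with quantile normalization, 0.0253 with one probe set per gene) and Igfbp5 (0.0748 with quantile normalization, 0.0067 with median centring, 0.1062 with one probe set per gene and without s or x, 0.0283 with other windows, -0.0876 to 0.0536 without single arrays); Igfbp6 late against early (-0.0017 to 0.0753 without single arrays); Igf1 late against 0 h (0.1981 with one probe set per gene); and, with other windows, Igfbp2 middle against early (0.0116) and late against 0 h (-0.02). The causes were not tested. No paired analysis was possible because there is 1 array per time point and the labels give no replicate numbers.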

Other observations

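A probe set annotated to both Igf2r and Airn, the antisense RNA of the Igf2r locus, was left out of the Igf2r value. Its ratio lay between 0.853 and 1.20 on the 13 arrays, and its late minus early change was -0.03 (adjusted p 0.899), where both probe sets that name Igf2r alone fell. A probe set annotated to both H19, the imprinted neighbour of Igf2, and Mir675 had ratios of 0.932 to 1.06 from 0.5 h on, against 1.16 at 0 h, with a late minus early change of 0.00 (adjusted p 0.981).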
